A study of Homo sapiens with 3 samples.

Results

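Cytosolic ribosomal proteins are the protein components of the ribosome that translates messenger RNA (mRNA) in the cytoplasm. Their genes were chosen by symbol alone, as RPL or RPS followed by a number with at most a short suffix, plus RPLP0, RPLP1, RPLP2 and RPSA, and without pseudogenes or the RPS6K kinase genes. Of the 29689 symbols in the expression table, 86 matched, and 1 of them (RPS10L, a pseudogene in the RefSeq records) was left out, which leaves 85 members. They comprised 46 core proteins of the large subunit, 31 core proteins of the small subunit and 8 paralogs, whose symbols end in L, L1 or AL (among them RPL3L, RPL7L1, RPL22L1, RPL26L1, RPL36AL, RPL39L and RPS27L). RNA sequencing was carried out on xenograft tumors of SUM-149, a triple-negative breast cancer cell line, grown from cells mixed with Matrigel in the mammary fat pads of female Nu/Nu mice. The vehicle tumor was mock treated, the CDK2i tumor received dinaciclib and the EZH2i tumor received EPZ6438, both for 10 days. Each condition is 1 library from 1 cell line, the host age is not given in the labels used here, and the EZH2 inhibitor is given as the label has it, although another SUM-149 experiment of the study used GSK343. No value has a replicate, no p-value was computed, and a difference between libraries cannot be told apart from a difference between tumors of the same condition.

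The large subunit holds the catalytic center that joins amino acids and the tunnel through which the new chain leaves, while the small subunit binds mRNA and reads the codons. Ribosomal proteins are needed in about equal numbers, and most of their mRNAs begin with a terminal oligopyrimidine (TOP) motif, a C followed by an unbroken run of C and T (U in the RNA), through which mTOR and LARP1 control translation of the mRNA. Paralogs are encoded by separate genes, and some of them replace their core partner in certain tissues or tumors.

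The sequence around the annotated transcription start shows this shared feature of the core members and its absence from most paralogs. The windows below hold 10 bases before and 20 bases from the start site of the GENCODE 44 annotation on GRCh37, 5′ to 3′ on the strand of the gene, with the longest run of C and T in capitals. RPS21, RPS29 and RPL34 are shown because their differences from vehicle were among the lowest of the members, and RPL4 and RPS2 because theirs were among the smallest of the well expressed ones. RPL39 and RPL39L, RPL22 and RPL22L1, and RPS27 and RPS27L are pairs of core protein and paralog that recur in the comparisons.
RPS21 (chr20:60962149-60962178, plus strand): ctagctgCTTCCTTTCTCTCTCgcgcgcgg
RPS29 (chr14:50053079-50053108, minus strand): gggccagCTTCTTCCTTTTacctcgttgca
RPL34 (chr4:109541722-109541751, plus strand): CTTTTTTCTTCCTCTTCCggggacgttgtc
RPL4 (chr15:66797174-66797203, minus strand): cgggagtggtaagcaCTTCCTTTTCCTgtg
RPS2 (chr16:2014808-2014837, minus strand): aggtctcgTTCTTCTTTTCCgacaaaacac
RPL39 (chrX:118925574-118925603, minus strand): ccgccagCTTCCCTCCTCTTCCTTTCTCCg
RPL39L (chr3:186857265-186857294, minus strand): cggggaaatcgcggTCTTagcatccggcgc
RPL22 (chr1:6259636-6259665, minus strand): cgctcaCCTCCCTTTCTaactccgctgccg
RPL22L1 (chr3:170587965-170587994, minus strand): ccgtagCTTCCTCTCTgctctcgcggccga
RPS27 (chr1:153963228-153963257, plus strand): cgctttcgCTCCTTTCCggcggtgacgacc
RPS27L (chr15:63449657-63449686, minus strand): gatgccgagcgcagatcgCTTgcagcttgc

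A C followed by at least 5 C or T on the same strand was found in 71 of the 77 core windows (92.2%), in 43 of 46 from the large and 28 of 31 from the small subunit. It was found in 2 of the 7 paralogs with a window (28.6%), which were RPL22L1 and RPL36AL. The same letters occurred in 23.2% of the windows of 19784 other protein-coding genes and in 14.7% of those of 75 mitochondrial ribosomal proteins. The median length of the longest run was 11 bases in the core members, 5 in the paralogs and 4 in the other protein-coding genes. A match describes these letters in this window only. Of the 84 members with a window, 60 had it whole in the RefSeq promoter of the same gene, so the start site differs between annotations for some members. RPL4 and RPS2 carried runs as long as RPS29, and their levels differed far less from vehicle, as given below. The part of the run in these levels was not tested.

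The table gives log2 FPKM (the fragments of a gene divided by its length and by the depth of the library), and the depth of the libraries lay between 16.8 and 19.1 M fragments. A gene was taken as expressed if its log2 FPKM averaged over 1 and none of its values was listed at 0, which held for 11109 genes and for 82 of the members. RPL3L, the muscle form of RPL3, was below the expression limit. Keratins and other markers of basal-like epithelium were high in each library, with an FPKM sum over 7 genes of 6368 in vehicle, 15400 in CDK2i and 6352 in EZH2i, and 5 general epithelial genes summed to 1442, 1244 and 763.5. Human macrophage markers (8 genes, of which 1, 2 and 4 were listed at 0) summed to 12.3, 11.7 and 5.52, fibroblast markers (7 genes) to 24.5, 38.4 and 28.9, 3 endothelial markers to 0.833, 0.730 and 0.466, 4 lymphocyte markers to 0.401, 0.0613 and 0.337, and the leukocyte gene PTPRC was at most 0.0224. Mouse stroma is seen only as far as its reads were assigned to human genes. The part of these cell mixtures in the results was not tested.

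In the vehicle tumor the ribosomal protein mRNAs were among the most abundant transcripts, and 27 of the 85 members lay above 1000 FPKM. RPS6, the small-subunit protein phosphorylated by the S6 kinases, was the highest at 5943 FPKM. RPS18 followed at 4758 FPKM and RPL8, a protein near the catalytic center, at 3764 FPKM. RPL35 was at 2854 FPKM and RPS3 at 2647 FPKM. Far fewer members were that high in the treated tumors, with 8 above 1000 FPKM in CDK2i and 5 in EZH2i. The median core member of the large subunit was at 712.5 FPKM in vehicle, at 374.9 after CDK2i and at 350.9 after EZH2i. The median core member of the small subunit was at 630.8, 369.9 and 293 FPKM. The members together held 15.5% of the summed FPKM in vehicle, 8.72% after CDK2i and 8.38% after EZH2i. In tumor tissue fewer cells with abundant ribosomal protein mRNA and less of it per cell cannot be told apart.

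**Figure D1:**
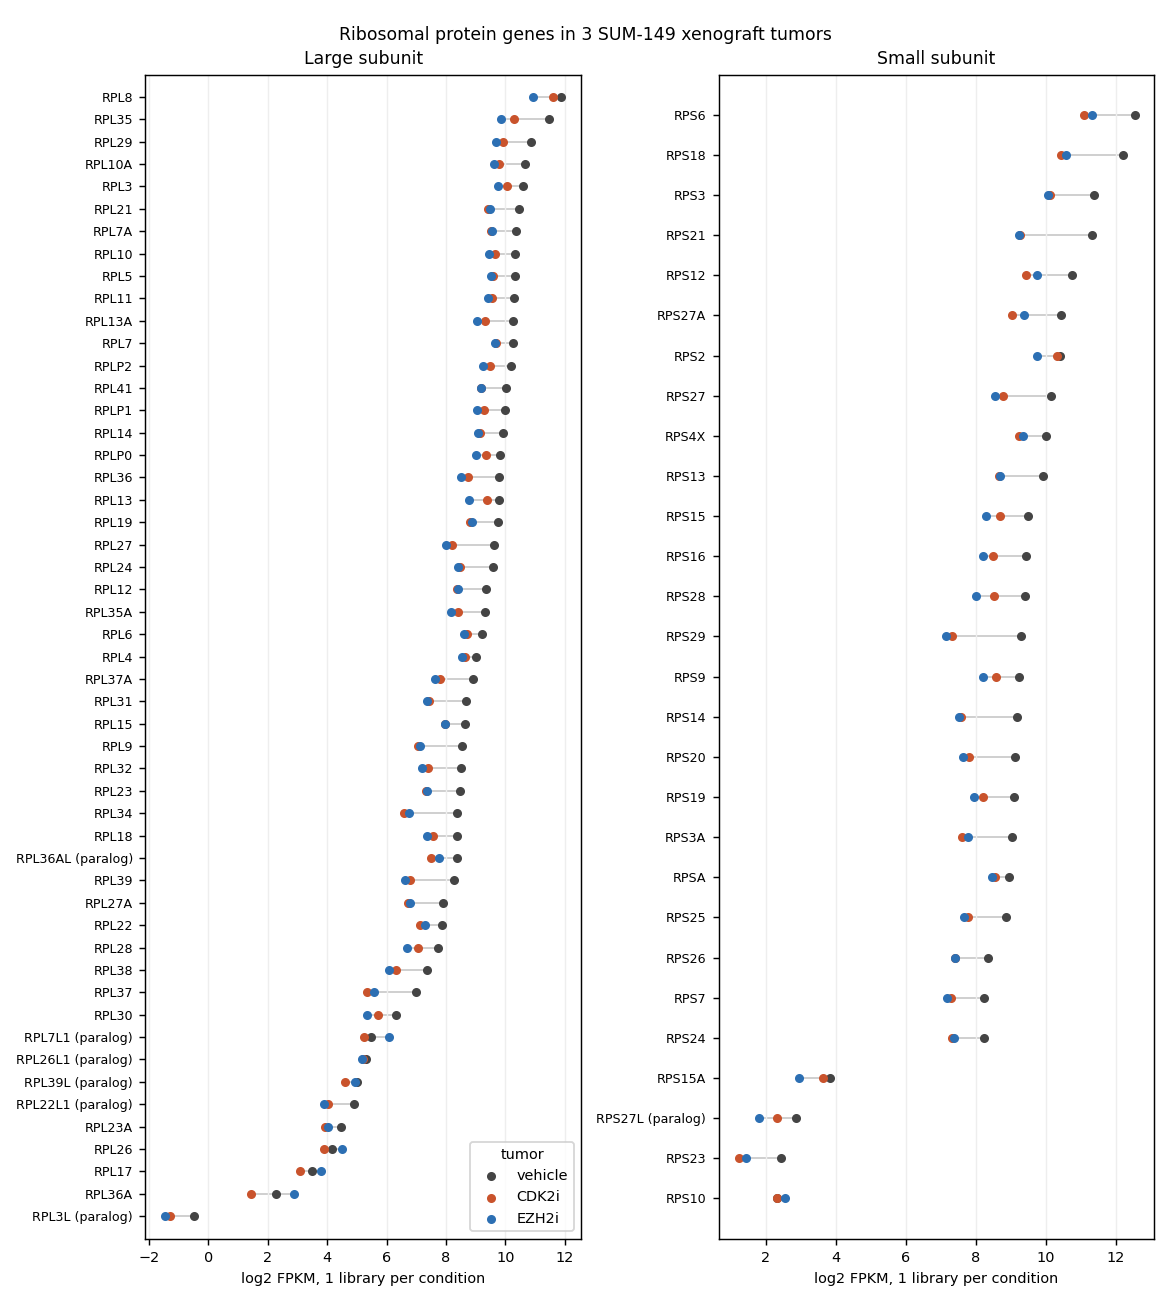
Level of the members in the 3 libraries (horizontal axis, log2 FPKM), large subunit left and small subunit right, ordered by the level in vehicle. Each point is 1 library, and some members are not drawn. The points for CDK2i and EZH2i lie to the low side of vehicle for nearly every core member, while RPL7L1 and some of the lowest-listed members do not follow that order.

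To see which members were lower after CDK2 inhibition, the CDK2i tumor was set against the vehicle tumor. A gene was called when the fold was above 2 and the higher level of the pair was above log2 FPKM 3 (8 FPKM). Of the core large-subunit members that reached this minimum, 15 of 45 (33.3%) were called lower and none higher, and of the core small-subunit members 14 of 28 (50%) were called lower and none higher. Among all 6632 expressed genes above the minimum, 8.07% were called lower and 3.27% higher. The large-subunit count depends on the scaling and was 7 with libraries centred at the median gene and 8 with equal summed FPKM, where the small-subunit count was 13 in both. Over all genes the number called lower was 535 as deposited, 356 centred and 354 with equal summed FPKM. All 76 expressed core members were below vehicle by some amount, against 58.0% of the 11109 expressed genes. The median log2 difference was −0.84 for the large subunit (SD over members 0.35, n = 46) and −1.02 for the small subunit (SD over members 0.50, n = 30), beside −0.11 for all expressed genes. Relative to that median the subunits lay at −0.73 and −0.90.

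The called members of the large subunit in CDK2i were RPL34, RPL37, RPL9, RPL39, RPL27, RPL31, RPL35, RPL27A, RPL23, RPL24, RPL32, RPL37A, RPL36, RPL21 and RPL38, with log2 differences from −1.77 to −1.04. Those of the small subunit included RPS21, RPS29, RPS18, RPS14, RPS6, RPS3A, RPS27A, RPS27, RPS20, RPS12, RPS3, RPS13 and RPS25, from −2.08 to −1.07. Among them are RPS6, the target of the S6 kinases, and RPS3, which lines the entrance of the mRNA channel.

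Where 3 values follow each other below, they are those of the vehicle, CDK2i and EZH2i tumors in that order. RPS21, a small-subunit protein, was at 2567, 608.9 and 598.8 FPKM. It had the lowest difference of the members in CDK2i, −2.08 on the log2 scale, which is 4.22-fold lower, and −2.10 in EZH2i. RPS29, a zinc-binding protein of the small-subunit head, was at 630.8, 159.5 and 142.5 FPKM. Both members were close together in the treated tumors and apart from vehicle. RPS18, also in the head, was at 4758, 1396 and 1521 FPKM. RPS14, a protein along the mRNA path whose loss is tied to the anemia of the 5q− syndrome, was at 583.3, 190.9 and 185.3 FPKM. These were the 4 core small-subunit members with the lowest differences in CDK2i, between −2.08 and −1.61, and the same 4 had the lowest in EZH2i.

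In the large subunit, RPL34 was at 331.5, 97.1 and 108.5 FPKM, a log2 difference of −1.77 in CDK2i and −1.61 in EZH2i. RPL37, another small zinc-binding protein, was at 127.2, 40.6 and 47.4 FPKM. RPL9 was at 373.2, 134 and 139.8 FPKM. These members were called in both comparisons with vehicle. RPL39, a short protein lining the exit tunnel that the study names, was at 305.5, 110.2 and 98.4 FPKM. It ranked 8 of the expressed members from the lowest difference in CDK2i (−1.47) and 5 in EZH2i (−1.63). RPL27 was at 785.2, 291.6 and 254.2 FPKM, a difference of −1.43 and −1.63.

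At the other end, RPL8 was at 3764 FPKM in vehicle and 3119 in CDK2i, a log2 difference of −0.27. RPL4, whose extended loop lines the tunnel, was at 510.2 and 396.5 FPKM (−0.36), and RPL13 at 875.5 and 670 FPKM (−0.39). None of these was called in CDK2i. RPS2, at the entrance of the mRNA channel, was at 1359 FPKM in vehicle and 1279 in CDK2i, a difference of −0.09 whose sign turned under 3 of the 4 other scalings and corrections tried. RPSA, which also serves as a laminin receptor, was at 491.5 and 374.5 FPKM (−0.39). Well expressed members of one subunit thus differed from each other by up to the distance from RPS21 to RPS2, while the counting error of no expressed core member exceeded 0.15 (log2 SD, counting error only).

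The EZH2i tumor was set against the vehicle tumor by the same rule. Of the core large-subunit members above the minimum, 22 of 45 (48.9%) were called lower, and of the core small-subunit members 22 of 28 (78.6%). None was called higher. The large-subunit count was 37 with centred libraries and 12 with equal sums, and the small-subunit count was 10 with equal sums. Over all genes the number called lower moved the same way, from 328 as deposited to 581 centred and 170 with equal sums. Over all 7414 expressed genes above the minimum, 4.42% were called lower and 8.93% higher. The median log2 difference was −0.97 for the large subunit (SD over members 0.48, n = 46) and −1.17 for the small subunit (SD over members 0.46, n = 30), beside 0.19 for all expressed genes. Relative to that median they lay at −1.16 and −1.37. By some amount, 43 of 46 large-subunit and 29 of 30 small-subunit core members were lower, against 38.5% of all expressed genes. The members that were higher by some amount were RPL36A, RPL26, RPL17 and RPS10, named for this sign after their values were seen, and each of them was listed far below the other core members. Both comparisons share the vehicle library and are not independent of each other.

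Of the members called in EZH2i, RPL10A, RPL13, RPL13A, RPL18, RPL28, RPL29 and RPL35A in the large subunit and RPS7, RPS9, RPS15, RPS16, RPS19 and RPS28 in the small subunit had not passed the fold in CDK2i, where their differences lay between −0.96 and −0.39. RPL21 was called in CDK2i (−1.05) and lay at −0.98 in EZH2i. These members sit close to the threshold in many cases, and no test of the difference between comparisons was possible.

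RPL39 and RPL27 had the lowest differences of the large subunit in EZH2i, followed by RPL35, which was at 2854, 1247 and 926.7 FPKM. RPL35 sits at the tunnel exit, where it contacts factors that act on the new chain. RPS27, the zinc-binding partner of the paralog RPS27L, was at 1133, 435.3 and 377.9 FPKM, called in both. RPS6 was at 5943, 2197 and 2580 FPKM, a log2 difference of −1.44 in CDK2i and −1.20 in EZH2i. RPL4 (372.5 FPKM in EZH2i, −0.45) and RPSA (355.8 FPKM, −0.47) were again among the members with the smallest differences.

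Over the core members the small subunit was lower than the large one in both comparisons with vehicle. The median difference of the large subunit minus that of the small subunit was 0.17 in CDK2i, 0.20 in EZH2i and −0.05 between the treated tumors, each less than the SD over members of 1 subunit. In summed FPKM the distance was larger. Core large-subunit mRNAs held 8.09% of the summed FPKM in vehicle, 5.20% after CDK2i and 4.69% after EZH2i. Core small-subunit mRNAs held 7.29%, 3.45% and 3.60%. The ratio of small to large was 0.901 in vehicle, 0.662 in CDK2i and 0.766 in EZH2i. The sum of the small subunit rests on a few members, since its 5 highest (RPS6, RPS18, RPS3 and RPS21 among them in vehicle) held 51.6% of it in vehicle, 46.2% in CDK2i and 48.5% in EZH2i, whereas the 5 highest of the large subunit held 31.2%, 33.4% and 28.2%. Mitochondrially encoded transcripts, which are in the same total, held 21.6%, 14.2% and 19.1%.

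By position in the ribosome, the members of the small-subunit head were most often called. Of the 12 head proteins above the minimum, 7 (58.3%) were called lower in CDK2i and 12 in EZH2i. The shares over the whole core small subunit were 50% and 78.6%, and those over all genes 8.07% and 4.42%. The head medians were −1.07 and −1.19 over 13 expressed proteins, close to the −1.02 and −1.17 of the core small subunit. The proteins along the mRNA path (6 expressed) had medians of −1.08 and −1.15. The stalk that recruits translation factors was less far from vehicle. RPLP0, its base, was at 900.1, 654.4 and 512.4 FPKM, and RPLP1 and RPLP2, the acidic proteins it carries, were at 1016, 626.9 and 532.6 and at 1160, 713.1 and 605.5 FPKM. With RPL12 the stalk had medians of −0.70 and −0.94, and none of its 4 proteins was called. RPL5 and RPL11, which form a particle with 5S ribosomal RNA and can bind MDM2, were at 1281, 770.2 and 735.7 FPKM and at 1238, 740.3 and 678.4 FPKM. Neither was called. A list of 7 proteins made for the tunnel exit had medians of −0.94 and −0.85, with 3 called in each comparison. That list also holds RPL24, which is not an exit protein and was called in both (−1.125 and −1.175). The 4 X-linked members (RPL10, RPL36A, RPL39 and RPS4X) had medians of −0.80 and −0.76, and RPL39 was the only one of them called.

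Many ribosomal protein genes carry small nucleolar RNAs (snoRNAs), the guides of ribosomal RNA modification, in their introns. The annotation marks genes that host a noncoding RNA, a mark that is not limited to snoRNAs. The 33 core members with this mark had median log2 differences of −0.87 after CDK2i and −1.02 after EZH2i. The 43 expressed core members without the mark had −0.93 and −1.07. Called lower were 13 of 33 and 16 of 40 in CDK2i, beside 8.07% of all genes. In EZH2i they were 19 of 33 and 25 of 40, beside 4.42% of all genes. Within subunits the shares in CDK2i went opposite ways, with 6 of 22 hosts and 9 of 23 others called in the large subunit and 7 of 11 hosts and 7 of 17 others in the small subunit. In EZH2i these counts were 10 of 22 and 12 of 23 in the large subunit and 9 of 11 and 13 of 17 in the small subunit.

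Members with short coding sequences lay further below vehicle than those with long ones. Over the 76 expressed core members the Spearman correlation of the log2 difference with coding length was 0.43 in CDK2i, 0.45 in EZH2i and 0.03 between the treated tumors. The points share the libraries and are not independent, and in 9161 other genes the values were 0.04, 0.32 and 0.22. In the 4232 other genes no longer than the longest core member they were −0.0045, 0.18 and 0.16. The 26 members with coding sequences of 75 to 405 bases had medians of −1.07 after CDK2i and −1.27 after EZH2i. The 25 members of 582 to 1281 bases had −0.70 and −0.86. Other genes in these length ranges had medians of −0.13 and −0.26, and −0.09 and 0.10. Core members therefore lay below other genes of like length in each range. RPL41, with 75 bases the shortest, was at 1048, 581.2 and 579.6 FPKM (−0.85 in both), a smaller difference than that of RPL39 (153 bases) or RPS29 (168 bases).

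**Figure D2:**
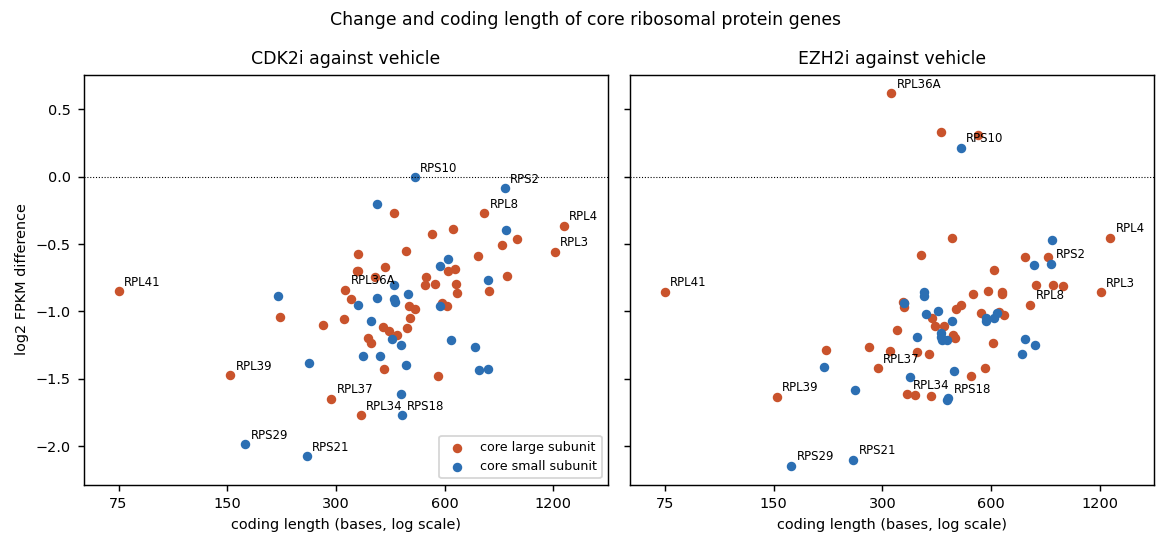
Log2 FPKM difference from vehicle (vertical axis) against the length of the coding sequence in bases (log axis) for the 76 expressed core members, in CDK2i and in EZH2i. Short members such as RPS29 lie lowest and RPL4, the longest at 1281 bases, is among the members closest to 0, with RPL41 at 75 bases as an exception.

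Between the treated tumors, no core member was called in either direction, against 24.1% of 7394 expressed genes (17.5% higher and 6.53% lower in EZH2i). The median log2 difference of EZH2i minus CDK2i was −0.11 for the large subunit and −0.06 for the small subunit, beside 0.35 for all expressed genes. The direction of these medians depends on the scaling, and with equal summed FPKM the small-subunit median was 0.03 while the large-subunit one was −0.02. The core members lowest in EZH2i relative to CDK2i included RPL8 (−0.68), RPL13 (−0.62) and RPS2 (−0.56). RPS2, with a small difference in CDK2i, was at 868.3 FPKM in EZH2i, 1.57-fold below vehicle. RPS27A, which is made as a fusion with ubiquitin, was at 529.7 FPKM in CDK2i and 665.8 in EZH2i (0.33), and RPS12 at 687.4 and 853.9 FPKM (0.31). RPS6 was higher in EZH2i by 0.23, and RPS27A, RPS12 and RPS6 lay below vehicle in both. With each library centred on its median the sign of these members between the treated tumors turned, while that of RPL8, RPL13 and RPS2 did not turn under any scaling tried.

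The order of the core members in that comparison ran with the GC content of their coding sequence. The Spearman correlation was −0.60 over 76 core members and −0.59 within each subunit, and it was −0.44 over 9161 other genes. The 25 core members with a GC content of 54.25 to 62.99% had a median of −0.28, with 22 of them lower in EZH2i, and the 26 with 42.48 to 47.94% a median of 0.04, with 12 lower. Other genes in these GC ranges had medians of 0.08 and 0.61. GC content ran with the difference between these libraries also in the other genes with a coding sequence, and its part in the differences of single members was not tested. With the trend of GC content and length over all genes removed, the core medians lay below vehicle. They were −0.70 and −0.89 for the large and small subunit in CDK2i and −0.98 and −1.18 in EZH2i. The part of GC content and length in these medians was not tested.

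**Figure D3:**
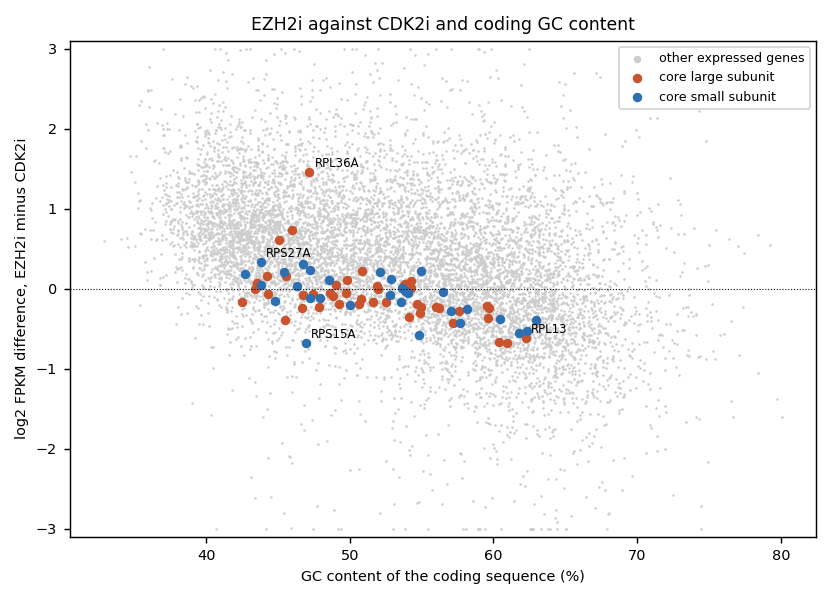
Log2 FPKM difference of EZH2i minus CDK2i (vertical axis, values beyond 3 drawn at the edge) against the GC content of the coding sequence in percent (horizontal axis), for the core members and, in grey, the other expressed genes. The core members run downward from left to right, and those above 54.25% GC have a median of −0.28.

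The paralogs as a group lay closer to vehicle than the core members. The median log2 difference over the 6 expressed paralogs was −0.47 in CDK2i and −0.36 in EZH2i, which is 0.43 and 0.69 above that of the core members. The 7 expressed core members listed below log2 FPKM 6 in vehicle had medians of −0.42 and 0.22. Lying closer to vehicle was thus not particular to the paralogs. In CDK2i none of the 5 paralogs above the minimum was called, beside 8.07% of all genes called lower and 3.27% higher. In EZH2i 1 of 5 (RPL22L1) was called lower, beside 4.42% of all genes. With 5 paralogs these shares cannot be set apart. The group was not uniform, with differences from −1.06 to 0.61 in EZH2i, and with 6 genes its median moves with single members. The SD over its members was 0.32 in CDK2i and 0.64 in EZH2i.

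RPL39L, a copy of RPL39 that ribosomes of spermatids and some cancers use, was at 32.2, 24.3 and 30.7 FPKM. RPL39 exceeded it 9.48-fold in vehicle, 4.53-fold in CDK2i and 3.20-fold in EZH2i. Within this pair RPL39 was lower in both treated tumors, and RPL39L lay closer to its vehicle level and turns its sign in EZH2i with equal summed FPKM. RPL7L1, which is known from the assembly of the large subunit, was at 44.8, 37.9 and 68.3 FPKM, and RPL7 at 1223, 814.6 and 810.7 FPKM. RPL7 exceeded RPL7L1 27.3-fold in vehicle, 21.5-fold in CDK2i and 11.9-fold in EZH2i. RPL7L1 was the only expressed paralog above vehicle in EZH2i (0.61, not called).

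RPL22L1, which can take the place of RPL22, was at 30.2, 16.4 and 14.9 FPKM, while RPL22 was at 234.6, 140.1 and 156.6 FPKM. Here the paralog lay as far below vehicle as the core protein or further, with a ratio of core to paralog of 7.76, 8.53 and 10.5. The longest pyrimidine run of the start window was 10 bases in RPL22L1, 13 in RPL36AL, 5 in RPL26L1, 4 in RPL39L, 3 in RPS27L and 2 in RPL7L1. In that order the EZH2i differences were −1.02, −0.60, −0.11, −0.07, −1.06 and 0.61, which the run did not order. The CDK2i differences were −0.88, −0.88, −0.11, −0.41, −0.54 and −0.24, lowest in the 2 paralogs with the longest runs. The part of the run in these differences was not tested. RPS27L, a p53 target, was at 7.33, 5.04 and 3.51 FPKM against 1133, 435.3 and 377.9 for RPS27, and its difference of −1.06 in EZH2i was not called because it lay below the expression minimum. RPL26L1 was at 39.4, 36.6 and 36.5 FPKM and RPL36AL at 330.6, 179.4 and 218.6 FPKM. Both were listed above their core partners RPL26 and RPL36A, which are among the low-listed members described next. RPL3L was at 0.710, 0.407 and 0.366 FPKM, about 33, 21 and 18 fragments, with exact 95% Poisson intervals of 22.7 to 46.3, 13 to 32.1 and 10.7 to 28.5 that overlap and cover counting error only.

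**Figure D4:**
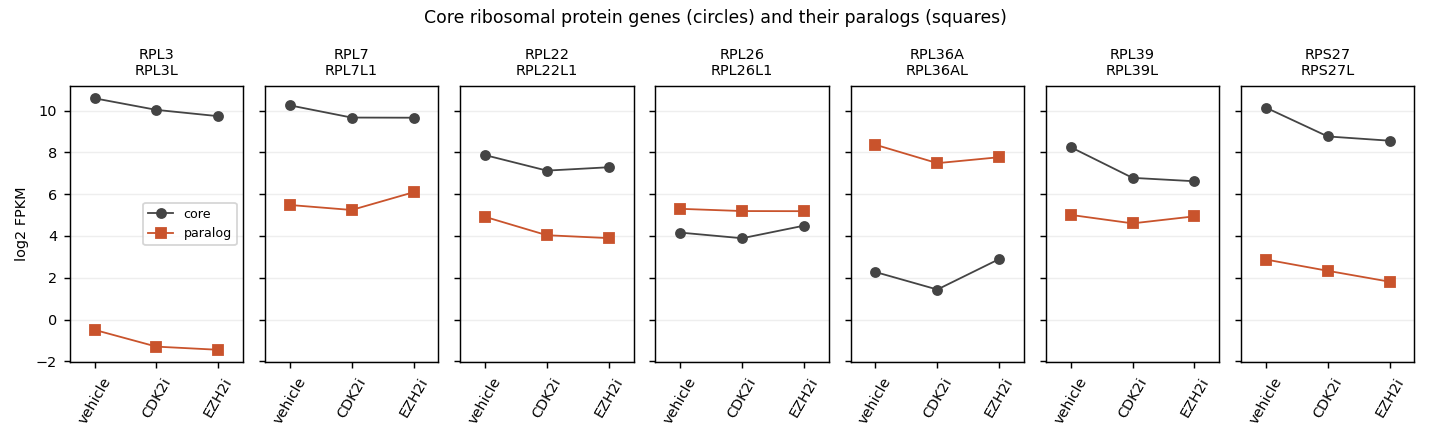
Level (log2 FPKM) of the core protein (circles) and its paralog (squares) of 7 pairs in the vehicle, CDK2i and EZH2i libraries, with lines that only join the points of a gene. In the RPL39 pair the distance narrows from 9.48-fold in vehicle to 3.20-fold in EZH2i, while in the RPL22 pair it widens from 7.76-fold to 10.5-fold.

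Of the 77 core members, 8 were listed below log2 FPKM 6 in vehicle (among them RPL17, RPL23A, RPL26, RPL36A, RPS10, RPS15A and RPS23), while the other 69 lay between 79 and 5943 FPKM. RPL26 is listed in a block of 157 unsorted symbols at the end of the table. Of these 8, 6 share exons with a read-through gene in the annotation (such as RPL36A-HNRNPH2 or RPS10-NUDT3), against 1 of the other 69 (RPL22). How the counting treated shared exons is not given in the sources used here, and its part in the low values was not tested. RPL36A was at 4.84, 2.71 and 7.44 FPKM, the largest difference between the treated tumors of any core member (1.46, below the minimum). RPL17 was at 11.3, 8.40 and 14 FPKM, RPL26 at 17.9, 14.8 and 22.5 FPKM, and RPS10 at 5.04, 5.02 and 5.84 FPKM. RPS15A went the other way, at 14.3, 12.4 and 7.75 FPKM. RPL23A was at 22.2, 15.1 and 16.2 FPKM and RPS23 at 5.39, 2.34 and 2.71 FPKM. Over the 7 low-listed members with values, the median log2 difference was −0.42 in CDK2i and 0.22 in EZH2i, with 4 of 7 above vehicle in EZH2i. Over the other 69 it was −0.94 and −1.07, with 69 of 69 below vehicle in each.

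Pseudogenes of ribosomal proteins, most of them DNA copies of the spliced mRNA, can take reads from their parent genes. Of 278 symbols named as such in the table, 42 were expressed. All of these symbols together held 0.375% of the summed FPKM in vehicle, 0.345% after CDK2i and 0.251% after EZH2i, which is 2.42, 3.96 and 2.99% of the level of the members. The median log2 difference of the expressed ones was −0.48 in CDK2i and −0.54 in EZH2i. Of those above the minimum, 3 of 17 (17.6%) were called lower in CDK2i, beside 8.07% of all genes. In EZH2i 8 of 19 (42.1%) were called lower and 1 higher, beside 4.42% and 8.93% of all genes. RPS2P46 was at 649.9, 631.7 and 343 FPKM, and its parent RPS2 at 1359, 1279 and 868.3 FPKM, so the copy and the parent were both close to vehicle in CDK2i and both lower in EZH2i. RPL39P3 was at 76.7, 46.9 and 27.1 FPKM, beside 305.5, 110.2 and 98.4 for RPL39. Reads of a copy and its parent cannot be told apart with certainty, so the levels of members with expressed copies are uncertain to that extent.

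Genes that act with the ribosomal proteins mostly lay closer to vehicle. FAU, the precursor of RPS30, whose symbol falls outside the naming rule, differed by −0.79 in CDK2i and was called lower in EZH2i (−1.10). Of 17 expressed genes of other TOP mRNAs, 2 (11.8%) were called lower in CDK2i and 1 (5.88%) in EZH2i, shares near the 8.07% and 4.42% of all genes, with medians of −0.26 and −0.30. The called genes were EEF1B2, an exchange factor of translation elongation (−1.24 in CDK2i), and TPT1, whose mRNA is a classical TOP mRNA (−1.07 and −1.04). EEF1A1, the elongation factor that brings aminoacyl-tRNA, differed by −0.38 and −0.30, and EEF2, which moves the ribosome along, by 0.07 and −0.81. The other TOP mRNAs carried the pyrimidine letters in 17 of 18 windows. The part of these letters in their differences was not tested.

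Of the ribosome assembly factors above the minimum, 3 of 24 (12.5%) were called lower in CDK2i, including RRS1 (−2.29), beside 8.07% of all genes. In EZH2i 0 of 26 were called lower, beside 4.42% of all genes. The EZH2i median over 27 was 0.41, beside 0.19 for all expressed genes. Between the treated tumors 10 of 26 were called higher in EZH2i, beside 17.5% of all expressed genes above the minimum. Their median was 0.91, beside 0.35 for all expressed genes. Over 70 expressed mitochondrial ribosomal proteins, the medians were −0.31 and −0.11, with 5 of 64 above the minimum called lower in CDK2i, near the 8.07% of all genes, and 0 of 65 in EZH2i. Among 12 regulators of TOP mRNAs, MYC was called higher in CDK2i (1.20) and was at −0.28 in EZH2i, and MTOR was called higher in EZH2i (1.06). These were 1 of 8 above the minimum in each comparison, beside 3.27% and 8.93% of all genes. Genes with symbols of nuclear oxidative phosphorylation subunits (83 expressed) had medians of −0.17 and −0.45. This match by symbol also took in assembly factors such as NDUFAF1 and pseudogenes such as COX5BP6.

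**Figure D5:**
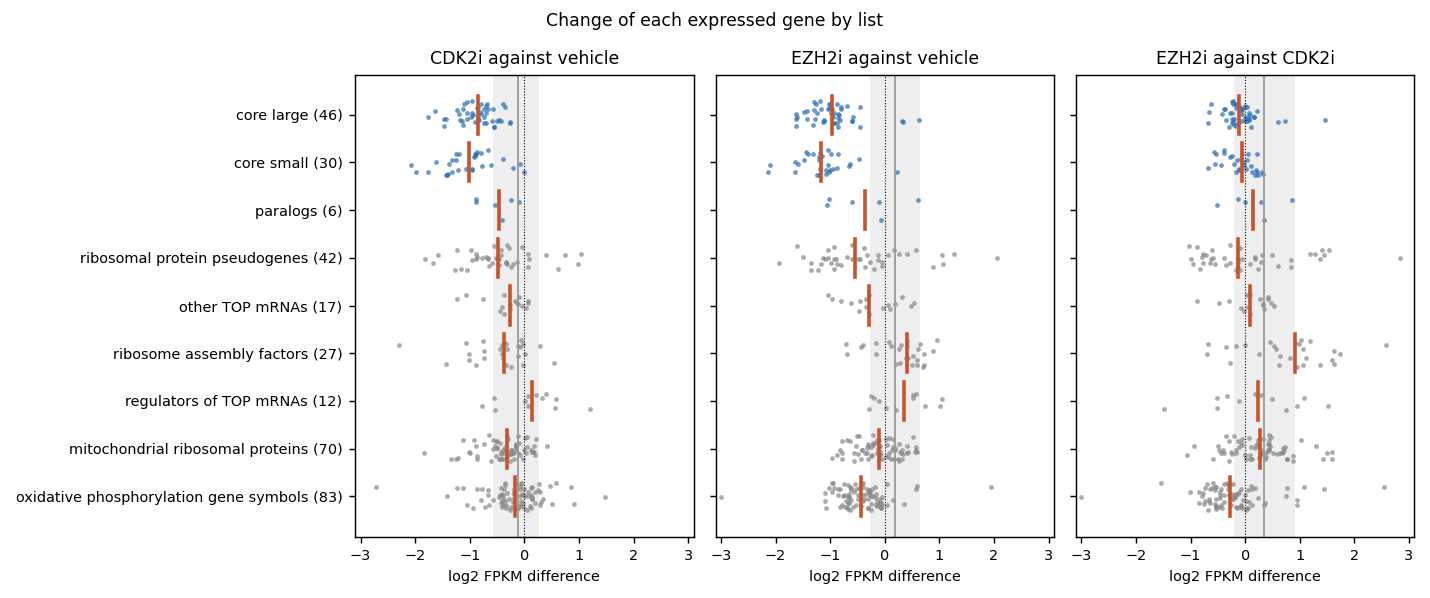
Log2 FPKM differences in each of the 3 comparisons for the core members of both subunits, the paralogs and the comparison lists, with 1 point per expressed gene, a bar at the median of each list and values beyond 3 drawn at the edge. The grey line and band give the median and quartiles of all expressed genes. In both comparisons with vehicle the core lists have the lowest medians, down to −1.17 for the small subunit in EZH2i.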

How the data were processed

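Total RNA from 3 xenograft tumors (vehicle, CDK2i, EZH2i; 1 library each) was sequenced by the authors, and the submitters' processing notes name CASAVA, STAR and hg19. The counting tool, its gene lengths and its use of strand are not given in the sources used here. The authors deposited log2 FPKM for each symbol, with −9 taken as an FPKM of 0. Differences of log2 FPKM were used without pseudocount. The fold and expression thresholds follow the study, and its limma p-value was not applied, since 1 library per condition leaves no error to estimate. Library depth in M fragments was read from the spacing of low FPKM values with exon lengths of GENCODE 44, and counting errors are Poisson errors from them. Coding length, GC content, read-through overlap, marks of noncoding RNA hosts and start windows came from the same annotation on GRCh37. It matched 84 of the 85 members. Named genes were the paralogs and their partners, RPL39, the 3 highest members of each subunit, the 4 lowest and 4 highest differences per comparison, and the role lists. Members and lists were chosen with earlier results of these data known. The calling and the trend removal were tested on simulated data. Alternatives were other scalings, folds, minimums and pseudocounts, and after seeing the data, removal of the GC and length trend (polynomial of degree 3) and of low-listed members. Python 3.11.15, numpy 2.4.6, pandas 2.3.3 and scipy 1.17.1 were used. RPS19BP1, a protein-coding gene matched by the pseudogene symbols, was left out of that list after its values were seen. Some members are counted in the totals and not reported here singly.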

Additional observations from a re-analysis of the deposited data

How the results depend on the processing

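No paired analysis was possible because each condition has 1 library, and for the same reason no replicate could be left out. The core medians stayed below vehicle under each scaling tried, from −0.66 to −0.99 for the large subunit in CDK2i and from −0.73 to −1.22 in EZH2i. Single members changed sign against vehicle with another scaling, RPS2, RPS10 and RPL26L1 in CDK2i and RPS10, RPL26L1 and RPL39L in EZH2i. For the 15 core large-subunit members lower in CDK2i, the count was 7 with libraries centred at the median gene, 8 with equal summed FPKM, 35 at a fold of 1.5, 2 at a fold of 3 and 9 with the GC and length trend removed. The 14 of the small subunit became 25 at a fold of 1.5 and 4 at a fold of 3. In EZH2i the 22 of the large subunit became 37 centred, 12 with equal sums, 40 at a fold of 1.5 and 4 at a fold of 3, and the 22 of the small subunit 10 with equal sums and 4 at a fold of 3. Between the treated tumors the large subunit had 3 calls centred, 1 with equal sums, 1 with a pseudocount of 1 FPKM, 5 at a fold of 1.5 and 1 without a minimum, and the small subunit 2 centred and 1 at a fold of 1.5. The distance of the paralogs from the core in EZH2i (0.69) was 0.94 for members with a mean log2 FPKM above 3, 0.45 for those with no value at 0 and 0.93 without near-identical copies, and between the treated tumors 0.398, 0.081 and 0.084 in place of 0.23. The looser and stricter folds change the counts by construction, and the cause of the other shifts was not tested. Another 100 values stayed within their limits. The core medians between the treated tumors changed sign, to 0.07 (large) and 0.12 (small subunit) with equal sums without ribosomal and mitochondrial genes. Of all genes called, the share higher was 28.9% in CDK2i, 66.9% in EZH2i and 72.9% between the treated tumors as deposited, 50.7, 31.8 and 28.5% centred, 46.7, 88.7 and 79.4% with equal sums, 17.4, 71.4 and 84% with equal sums without ribosomal and mitochondrial genes, and 45.6, 46.3 and 47.3% with the trend removed.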
